A study of Mus musculus with 46 samples.

Results

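Liver and white adipose tissue (WAT) of vehicle-treated obese mice were compared, using the 22 libraries of vehicle-injected animals among the 46 libraries of the series. These are all libraries that the labels give as vehicle, namely 11 of liver and 11 of WAT. In each organ 6 came from females and 5 from males. All animals were wild-type C57BL/6 mice, 7 weeks old when they were put on a high-fat diet (HFD) for 21 weeks, and from week 16 they were injected under the skin every day for 5 weeks. The vehicle was phosphate-buffered saline, and the other 24 libraries came from mice given 1 mg/kg per day of the peptide PTP-r. The organ difference described here is therefore that of obese, injected mice, with no lean or uninjected group among these libraries. The fat depot is not named in the labels, nor is it stated that a number shared by a liver and a WAT library is the same mouse. PolyA RNA was sequenced, and the values are counts of reads per gene as the authors deposited them.

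Liver and fat divide the handling of lipid between them. The hepatocyte makes most plasma proteins, assembles lipoproteins, makes glucose and ketone bodies, forms urea from ammonia and turns cholesterol into bile acids. The white adipocyte takes up fatty acids from lipoproteins at the capillary wall, stores them as triglyceride in a single large droplet, releases them by lipolysis and secretes hormones such as leptin and adiponectin. Between the parenchymal cells of both organs lie macrophages, endothelium and collagen-making stromal cells, which become more numerous or change state in obesity.

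Total counts on genes lay between 28737513 and 49608946 in liver (median 37568567) and between 22954284 and 32219751 in WAT (median 27966848). Levels are CPM, a gene's share of the library's counts scaled by the trimmed mean of M values, and a difference is log2 of liver over WAT with its standard error (SE), so a positive value means higher in liver. RNA of liver was concentrated in fewer genes: the 10 most abundant took 17.8% to 20.9% of a liver library and 9.14% to 18% of a WAT library. In liver 177 to 210 genes made up 50% of the counts, against 464 to 765 in WAT. The labels held against marker genes. The 20 hepatocyte markers summed to 177027 to 206955 CPM in liver and 179 to 1963 in WAT. Most of the WAT sum came from Cyp2e1, with a WAT mean of 796 CPM against 55.7 for Alb. The 20 white adipocyte markers summed to 25479 to 56856 CPM in WAT and 3592 to 8821 in liver. Most of this liver sum came from Car3 and Pck1, with liver means of 3895 and 2205 CPM. The liver means of Adipoq, Plin1 and Lep were 0.555, 0.528 and 0.0813 CPM. A few libraries stood apart in markers of other tissues. Skeletal muscle markers summed to 753 CPM in liver of female 12 against at most 8.76 in the other liver libraries, and to 296 CPM in WAT of male 3, where the other WAT libraries reached at most 150. Epididymis markers reached 62.7 CPM in WAT of male 9, while the 4 other male WAT libraries lay between 1.19 and 8.32 and female WAT reached at most 0.375.

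Of 18032 genes tested with edgeR's quasi-likelihood test, 15372 (85.2%) passed an adjusted p of 0.05. 7480 (41.5%) were higher in liver and 7892 (43.8%) in WAT, so most genes pass in this comparison. A test against a fold change of 2 was passed by 8311 genes (46.1%), of which 3335 (18.5%) were higher in liver and 4976 (27.6%) in WAT. The median difference over all genes was -0.05, with quartiles of -1.55 and 0.79. 1554 genes (8.62%) had a 95% interval wholly within a 1.25-fold difference in either direction. The p-values measure the spread between these libraries, since the labels do not state how the mice were kept apart or sampled. In tissue RNA, more cells of a type and more RNA per cell cannot be told apart.

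The genes that carry the highest levels of each organ come with promoters that can be read side by side. Windows of 250 bases before the annotated start (RefSeq, GRCm38.p6) are shown for 3 liver genes and 2 WAT genes, 5′ to 3′ on the gene's strand. They were picked after the search, to show the different motifs found: of the 12 genes with the highest level on each side, 10 liver genes had a window and 6 of them a match, and Lep was the only 1 of 10 WAT genes with a match. They are Alb at chr5:90460620-90460869 (plus strand), Gc at chr5:89457899-89458148 (minus strand), Cyp2e1 at chr7:140763569-140763818 (plus strand), Adipoq at chr16:23146286-23146535 (plus strand) and Lep at chr6:29059971-29060220 (plus strand). Capitals mark a match to a motif, which is C/EBP (TTGCNNAA) in Alb and Lep, HNF1 (GTTAAT, any base, then ATTAA) in Gc and a TATA box (TATAAA) in Cyp2e1, while Adipoq has no match to any of the 5 motifs searched.
Alb: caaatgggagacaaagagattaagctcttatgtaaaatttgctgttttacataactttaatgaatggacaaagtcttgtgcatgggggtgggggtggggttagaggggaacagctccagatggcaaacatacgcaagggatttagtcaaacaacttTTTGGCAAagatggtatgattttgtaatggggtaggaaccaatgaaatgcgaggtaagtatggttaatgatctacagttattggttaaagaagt
Gc: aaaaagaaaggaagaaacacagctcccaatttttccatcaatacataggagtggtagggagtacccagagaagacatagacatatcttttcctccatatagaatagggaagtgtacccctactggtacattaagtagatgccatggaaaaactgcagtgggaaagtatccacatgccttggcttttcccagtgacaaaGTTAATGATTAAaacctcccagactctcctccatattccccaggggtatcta
Cyp2e1: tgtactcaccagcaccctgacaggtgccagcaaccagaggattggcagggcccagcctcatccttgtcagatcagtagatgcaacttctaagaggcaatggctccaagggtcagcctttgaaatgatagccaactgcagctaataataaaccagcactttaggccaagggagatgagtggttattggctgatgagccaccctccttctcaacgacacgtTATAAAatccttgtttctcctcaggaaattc
Adipoq: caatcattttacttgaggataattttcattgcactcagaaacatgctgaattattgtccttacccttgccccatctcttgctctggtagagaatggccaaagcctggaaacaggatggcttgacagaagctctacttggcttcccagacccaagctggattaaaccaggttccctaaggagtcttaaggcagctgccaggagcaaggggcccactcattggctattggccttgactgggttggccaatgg
Lep: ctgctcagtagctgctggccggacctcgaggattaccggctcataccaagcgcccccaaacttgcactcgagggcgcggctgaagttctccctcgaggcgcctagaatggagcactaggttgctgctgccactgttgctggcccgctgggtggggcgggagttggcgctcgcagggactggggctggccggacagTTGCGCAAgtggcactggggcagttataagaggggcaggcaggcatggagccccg

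The match began 94 bases before the start in Alb, 52 in Gc, 31 in Cyp2e1 and 55 in Lep. Alb and Cyp2e1 had 2 CG dinucleotides each in the window, Gc and Adipoq 0, and Lep 16. Over all genes the same windows were searched on both strands, except TATAAA, which was searched on the gene's strand between 45 and 15 bases before the start. Windows were at hand for 11543 of 14815 protein-coding genes tested, among them 1254 that passed the 2-fold test toward liver with a log2 difference of at least 2 and 2318 toward WAT. The HNF1 motif stood in 6 windows, all of genes higher in liver (0.478% of these, 0% of the WAT genes, 0.052% of all). The HNF4 motif CAAAGTCCA was in 1.36% of the liver genes' windows, 0.431% of the WAT genes' and 0.442% of all. TTGCNNAA was in 11.1%, 8.46% and 7.93%, and the direct repeat DR1 (AGGNCA, any base, then AGGNCA again), a binding motif of PPAR and HNF4 receptors, in 1.04%, 0.345% and 0.303%. TATAAA was in 3.91%, 2.29% and 1.56%. The median number of CG dinucleotides was 8 in the liver genes, 11 in the WAT genes and 15 over all. These are descriptions of letters in a window: a match is no shown site, HNF4 and DR1 matches can overlap, and a window without a match says nothing of the factor.

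Secreted products of hepatocytes were nearly all far higher in liver. Of 30 plasma proteins made by hepatocytes, all 30 were higher in liver (median difference 10.54). Albumin RNA (Alb) lay between 101360 and 122310 CPM in liver (median 114280) and between 3.08 and 161 in WAT (median 34.5). The organs did not overlap, and the difference was 11.04 (SE 0.773, adjusted p = 5.39e-12). Per kb of exon, where genes can be compared with each other, Alb stood at 48587 CPM in liver and Apoa1, the main protein of high-density lipoprotein, at 6061. Apob, the scaffold of very-low-density lipoprotein, lay between 5985 and 8224 CPM in liver and between 0 and 4.03 in WAT. Gc (vitamin D binding protein), Pzp (a protease inhibitor), Ttr (the thyroxine carrier transthyretin) and Ahsg (fetuin-A) differed by 11.32, 12.0, 10.77 and 10.78.

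Not every abundant liver product was close to absent from fat. Apoe, which routes lipoprotein remnants to their receptors, had 1534 to 2444 CPM in WAT and 23301 to 31326 in liver, a difference of 3.77 (SE 0.174). Trf (transferrin, the iron carrier) had 1126 to 2300 CPM in WAT against 16890 to 25736 in liver. Complement C3 and the selenium carrier Selenop had 871 to 1906 and 857 to 1529 CPM in WAT, with differences of 3.28 and 2.99. Apolipoproteins and lipoprotein partners were higher in liver for 20 of 25 genes tested and higher in WAT for 5. Haptoglobin (Hp), an acute-phase protein that binds free haemoglobin, came closest to parity among these plasma proteins: liver had 2202 to 4204 CPM and WAT 459 to 4092. The Hp libraries overlapped, with a difference of 0.83 (SE 0.22, adjusted p = 0.00133) that became -0.05 with scaling by total counts.

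Coagulation and complement were split by the organ that held each step. Of 28 coagulation and fibrinolysis genes, 19 were higher in liver and 8 in WAT. Fibrinogen alpha chain (Fga), antithrombin (Serpinc1) and factor X (F10) were on the liver side, at 11.49, 10.98 and 7.53. Tissue factor (F3), which starts clotting at the vessel wall, thrombomodulin (Thbd), an endothelial brake on thrombin, and factor XIII A (F13a1), the clot cross-linker, were higher in WAT, at -2.03, -5.17 and -8.0. Of 30 complement genes, 20 were higher in liver and 9 in WAT. Adipsin (Cfd), the protease that starts the alternative pathway, had at most 4.69 CPM in liver and 253 to 5073 in WAT.

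**Figure D1:**
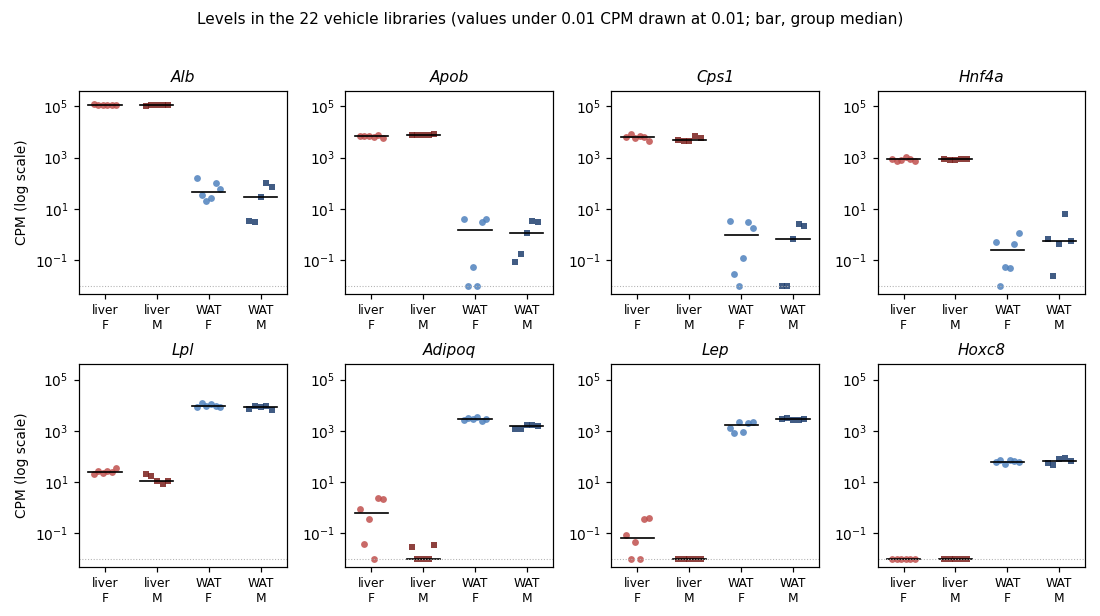
Levels of liver and WAT genes in each of the 22 vehicle libraries, as CPM on a log axis with values under 0.01 drawn at 0.01; points are libraries, by organ and sex (F, female; M, male), and bars are group medians. The Alb points lie between 101360 and 122310 CPM in liver and at or below 161 in WAT, and the Lpl points between 6707 and 11965 CPM in WAT and at or below 34.3 in liver.

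Fat showed the reverse pattern in genes of fatty acid capture, droplet coating and hormone secretion. Lpl, the lipase that frees fatty acids from lipoproteins, had 6707 to 11965 CPM in WAT (median 8899) and 8.42 to 34.3 in liver (median 20.5). No library crossed over, and the difference was -8.86 (SE 0.235, adjusted p = 8.41e-20). Fabp4, the fatty acid binding protein of adipocytes, had 5353 to 10349 CPM in WAT and 4.4 to 11.1 in liver. Cd36, a fatty acid transporter, was present in both organs, at 2940 to 4199 CPM in WAT and 80.1 to 272 in liver. The droplet proteins Cidec, which fuses lipid droplets, and Plin4, a droplet coat, differed by -9.47 and -7.74, and caveolin 1 (Cav1), which shapes the pits of the adipocyte surface, by -9.09. Gelsolin (Gsn), which cuts actin, differed by -7.32, Sparc, a collagen-binding glycoprotein, by -6.14, and Col4a1, a chain of basement membrane collagen, by -5.64.

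Adiponectin (Adipoq) ranged from 1158 to 3317 CPM in WAT and from 0 to 2.45 in liver. Leptin (Lep) ranged from 844 to 3097 CPM in WAT and from 0 to 0.41 in liver, where most libraries had 0 counts. Per kb of exon the WAT levels were 1607 CPM for Adipoq, 1510 for Fabp4, 855 for Lpl and 635 for Lep. Of 23 adipokines and other secreted fat products tested, 18 were higher in WAT, 4 in liver and 1 did not pass (median -4.32). Retinol binding protein (Rbp4), often counted as an adipokine, was on the liver side, with 2573 to 4209 CPM there and 183 to 571 in WAT. Of 19 hormones and carriers secreted by liver, 18 were higher in liver (median 4.79), among them Igf1, the growth hormone-dependent growth factor, at 1.9, and Fgf21, the fasting hormone, at 3.18, the latter with overlapping libraries. Angptl4, a circulating inhibitor of Lpl, was the 1 of that list on the WAT side, at -2.69.

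Transcription factors followed their known organs. Of 22 hepatocyte factors, 21 were higher in liver (median 8.27) and 1 did not pass. Hnf4a had 722 to 1092 CPM in liver and 0 to 6.32 in WAT, a difference of 10.05. Of 23 adipocyte factors, 17 were higher in WAT and 5 in liver (median -4.45). Pparg, the driver of adipocyte formation, had 104 to 190 CPM in WAT and 12.1 to 25.4 in liver, and its relative Ppara, which drives fatty acid oxidation, had 1.75 to 5.99 in WAT and 191 to 327 in liver. Cebpa, which serves both cell types, had 696 to 1023 CPM in liver and 496 to 884 in WAT, with overlapping libraries and a difference of 0.31 (SE 0.102, adjusted p = 0.0069) that turned to -0.56 with scaling by total counts. Genes with a positional code went further: Hoxc8 had 47 to 86.8 CPM in WAT and 0 counts in liver, which makes it at least 6575-fold higher in WAT (liver set to a floor of 3 counts over its 11 libraries). By the same floor Gipr, the receptor of the gut hormone GIP, was at least 1033-fold higher in WAT and Onecut1, a hepatocyte factor, at least 2713-fold higher in liver.

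Receptors for metabolic hormones were spread over both organs: of 40 tested, 18 were higher in liver, 19 in WAT and 3 did not pass (median -0.1), which became 12 in liver and 24 in WAT with scaling by total counts (median -0.98). The insulin receptor (Insr) differed by 1.59 and the closely related Igf1r by -2.06. The glucagon receptor (Gcgr) had 357 to 458 CPM in liver and 0.738 to 3.61 in WAT, and the lipolytic adrenergic receptor Adrb3 had 44.8 to 682 in WAT and 13 to 30.4 in liver. The growth hormone receptor (Ghr) had 662 to 1052 CPM in liver and 631 to 1190 in WAT, with a difference of -0.25 that missed the threshold (SE 0.133, adjusted p = 0.0817) but passed without liver of male 10 or WAT of male 3, 4 or 12 (-0.3 to -0.31).

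Many enzyme and carrier families were present in both organs with another member in the lead. In 53 families that could be compared by CPM per kb, the leading member differed between organs in 30 and was the same in 23. Of the 30, 22 had their leader in all 11 libraries of both organs, while in the others, such as the acetyl-CoA carboxylases, the lead changed between libraries of an organ. Leaders were taken by mean share, and among the 23 some did not lead every library either. Irs2 led the insulin receptor substrates in 4 of 11 liver libraries, and Mlxipl led its family in 8 of 11 WAT libraries. Slc2a2 made up 75.5% ± 2.69 (SD, n = 11) of glucose transporter RNA in liver and the insulin-responsive Slc2a4 75.2% ± 8.19 (SD, n = 11) in WAT. Pyruvate kinases, which catalyse the last step of glycolysis, swapped almost wholly: Pklr held 97.5% of their RNA in liver and Pkm 99.3% in WAT.

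Lipid families behaved alike. Fabp1 held 98.2% of fatty acid binding protein RNA in liver and Fabp4 96.7% in WAT. Among CIDE proteins, which fuse droplets or load lipoproteins, Cideb held 98.5% in liver and Cidec 99.9% in WAT. Aqp9 held 100% of RNA for glycerol channels in liver and Aqp7 98.8% in WAT. Lipc, the lipase of liver sinusoids, held 93.9% of its family in liver and Lpl 100% in WAT. Other families kept 1 leader: Scd1 held 99.8% and 97.6% of desaturase RNA, Cpt1a 99.7% and 90.1% of carnitine palmitoyltransferase 1 RNA, and Dgat2 96.8% and 91.8% of diacylglycerol acyltransferase RNA, in liver and WAT.

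**Figure D2:**
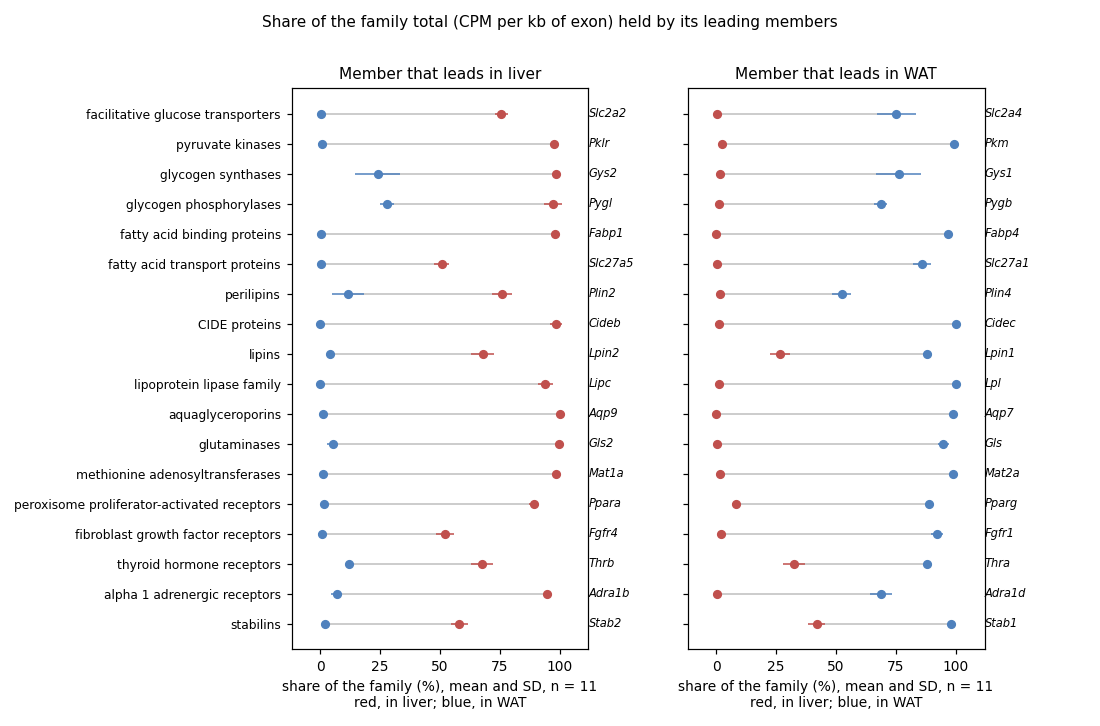
Share of a family's RNA (percent of the family's summed CPM per kb, mean and SD over 11 libraries) held by the leading member of each organ. The left panel has the leader in liver and the right panel the leader in WAT, such as Pklr at 97.5% and Pkm at 99.3%. Several families have shorter lines, among them lipins, stabilins, perilipins, thyroid hormone receptors and fibroblast growth factor receptors. In lipins, stabilins and thyroid hormone receptors the WAT leaders, Lpin1, Stab1 and Thra, also held 26.6%, 41.9% and 32.6% in liver. The liver leaders of these 3, Lpin2, Stab2 and Thrb, held 67.9%, 58.1% and 67.4% in liver and 3.83%, 2.08% and 12.1% in WAT.

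Pathways centred on the liver were almost wholly on its side. All 13 urea cycle and ammonia genes tested were higher in liver (median 8.78), and so were all 23 bile acid genes (median 10.63) and 33 of 35 amino acid catabolism genes, with 0 higher in WAT. Cps1, which fixes ammonia, had 4429 to 8740 CPM in liver and 0 to 3.53 in WAT, a difference of 12.21. Asl, an enzyme of the same cycle that arginine synthesis also uses, kept 14.8 to 20.5 CPM in WAT (difference 5.15). Cyp7a1, the first enzyme of bile acid synthesis, varied between 73.5 and 473 CPM among livers and reached at most 0.413 in WAT. Cytochromes P450 of drug and steroid metabolism were higher in liver for 27 of 29 genes (median 11.03). Cyp2e1, the ethanol- and ketone-metabolizing form, had 9949 to 15159 CPM in liver but also 138 to 1925 in WAT. Cyp1b1 was on the WAT side, at -4.27. Members of these families, like those of the Ugt, Gst and Mup families, can share reads, so the level of a single member is uncertain.

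Genes of glucose release and use were divided between the organs. G6pc, which frees glucose from glucose-6-phosphate, had 126 to 1080 CPM in liver and at most 1.06 in WAT. Pck1, which feeds glucose synthesis in liver and glycerol synthesis in fat, overlapped between organs, with 1348 to 3380 CPM in liver and 273 to 1884 in WAT (difference 1.25). Glycolysis as a list was even, 13 genes higher in liver and 12 in WAT of 30 (median 0.08), but with scaling by total counts 20 were higher in WAT (median -0.79). Pfkfb3, which makes the activator of phosphofructokinase, had 635 to 943 CPM in WAT and 5.2 to 21.7 in liver.

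Of 32 genes of fatty acid and triglyceride synthesis, 13 were higher in liver, 13 in WAT and 6 did not pass (median -0.15). With scaling by total counts 10 were higher in liver and 19 in WAT (median -1.02). Scd1, which desaturates stearate, was among the most abundant RNAs of fat, with 13888 to 42692 CPM there and 1358 to 31962 in liver. The Scd1 ranges overlapped through the highest liver, with a difference of -1.96 (SE 0.435, adjusted p = 0.000253). Fasn, the fatty acid synthase, had 2338 to 11282 CPM in WAT and 544 to 2475 in liver, also with overlap (difference -1.78, SE 0.333). The carboxylase Acaca before it overlapped as well and did not pass (difference -0.21, SE 0.29, adjusted p = 0.51). Without WAT of females 3 and 7, the libraries highest in synthesis genes, Acaca passed toward liver at 0.33 (adjusted p = 0.0236). Acsl1, which activates fatty acids, had 1175 to 2010 CPM in liver and 1244 to 2172 in WAT, a difference of -0.01 (SE 0.132, adjusted p = 0.934). The lipases of the droplet were on the fat side, at -4.11 for Pnpla2, which takes the first fatty acid off triglyceride, and -5.73 for Lipe, which takes the next. Plin2, the droplet coat of liver, had 291 to 869 CPM in liver and 201 to 734 in WAT. Cholesterol synthesis was on the liver side for 19 of 24 genes, 0 being higher in WAT (median 2.02), and for 16 against 4 with scaling by total counts (median 1.15).

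Oxidation was higher in liver by smaller steps. Of 31 genes of fatty acid oxidation and ketone synthesis, 29 were higher in liver and 2 in WAT (median 1.23), against 18 and 6 with scaling by total counts (median 0.36). The exception that separates the organs is Oxct1, which lets a cell burn ketone bodies: it had 276 to 543 CPM in WAT and 2.53 to 7.01 in liver (difference -6.62, SE 0.103). Of 20 tricarboxylic acid cycle genes, 12 were higher in liver and 6 in WAT (median 0.77), but with scaling by total counts the split was 7 to 9 (median -0.1). Cs, the entry enzyme, and Idh3a, a control point, were on the WAT side at -1.0 and -1.87. Nuclear respiratory chain subunits were higher in liver for 41 of 42 genes (median 0.89), although 7 alone passed the 2-fold test, and with total counts 12 were higher in liver and 14 in WAT (median 0.01). Atp5a1, a subunit of ATP synthase, had 1045 to 1353 CPM in liver and 492 to 743 in WAT, without overlap.

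Shared machinery had smaller median differences than the pathways centred on the liver. Of 31 proteasome subunits, 30 were higher in liver, but the median was 0.64, and with total counts 22 were higher in WAT (median -0.23). Endoplasmic reticulum secretion genes were higher in liver for 26 of 28 (median 0.84), and 11 passed the 2-fold test toward liver. With total counts the split became 12 against 12 (median -0.03). Splicing factors had 12 of 25 higher in liver and 6 in WAT (median 0.07), against 22 higher in WAT with total counts (median -0.8). Prohibitins, scaffold proteins of the inner mitochondrial membrane that the series title names, were measured in both organs. Phb had 69.8 to 97.3 CPM in liver and 58.4 to 82.5 in WAT, with overlap (difference 0.31, SE 0.0693, and -0.57 with total counts). Phb2 had 212 to 249 in liver and 72.3 to 105 in WAT (1.49, SE 0.062). Of 12 prohibitins and partners, 9 were higher in liver and 2 in WAT (median 0.61), which became 4 and 7 with total counts (median -0.26). The WAT side held Cd36 and Anxa2, an annexin of the cell surface, at -5.48. Scaling by total counts alone moved the median of all genes by -0.88, so differences of this size in shared machinery are relative to the scaling chosen.

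**Figure D3:**
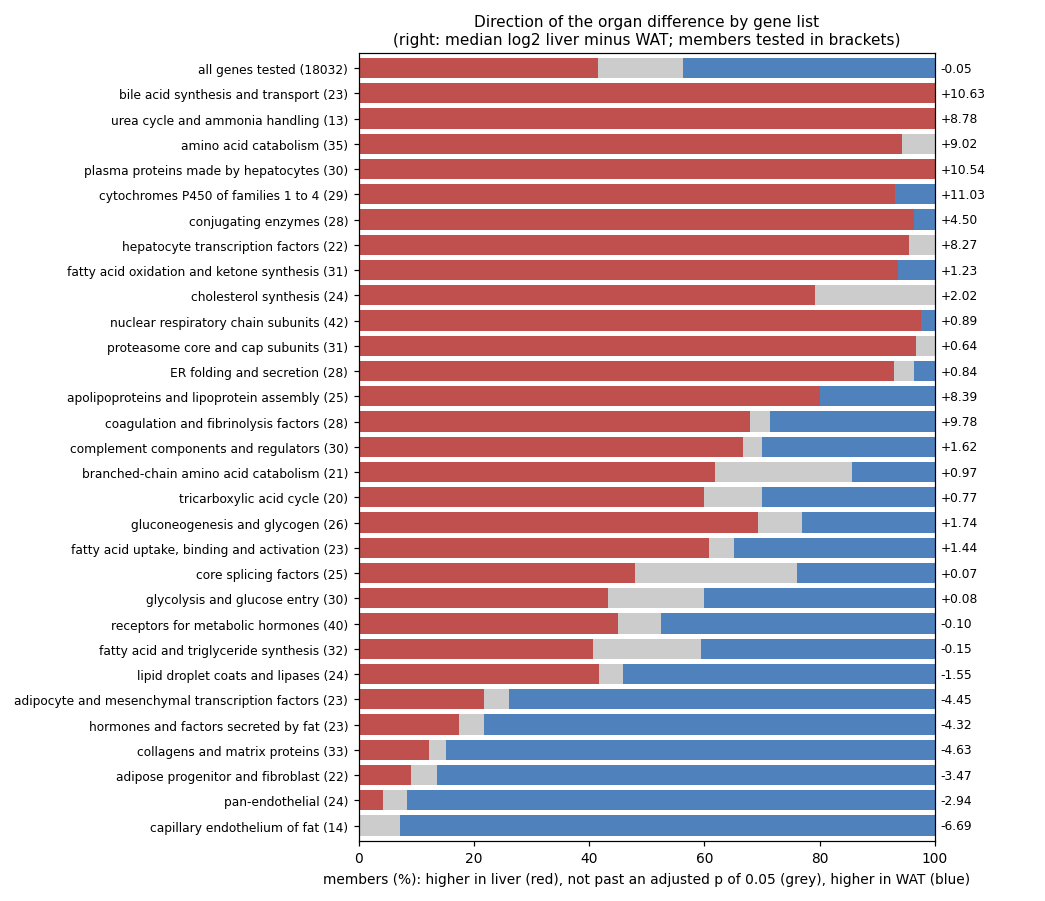
Percent of the tested members of each list that passed an adjusted p of 0.05 in edgeR's test toward liver (red), toward WAT (blue) or not at all (grey), with trimmed mean of M values scaling; numbers at the right are the list's median log2 difference. Urea cycle (13 of 13 toward liver) and collagens (28 of 33 toward WAT) are 1-sided; proteasome, secretion, splicing, receptor and fatty acid synthesis lists turn toward WAT or even out with scaling by total counts.

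Stromal and vascular genes gave fat its second large block. Of 33 collagens and matrix proteins, 28 were higher in WAT and 4 in liver (median -4.63). Col1a1 and Col3a1, chains of fibrillar collagen, had 377 to 1082 and 1077 to 2366 CPM in WAT against 4.95 to 28.2 and 22.2 to 86.3 in liver. Pan-endothelial markers were higher in WAT for 22 of 24 genes and summed to 2047 to 2483 CPM there against 439 to 693 in liver. Pecam1, an adhesion protein of all endothelium, differed by -3.68 (SE 0.0894). Adipose progenitor markers summed to 7575 to 12604 CPM in WAT and 451 to 721 in liver.

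Cells that are specific to the liver were visible against this background. Sinusoidal endothelium markers were higher in liver for 13 of 17 genes: Stab2, a scavenger receptor, had 51.9 to 104 CPM in liver and 1.19 to 6.05 in WAT, and Clec4g, a lectin, differed by 7.62. Their summed level did not separate the organs, at 399 to 715 CPM in liver and 367 to 683 in WAT. Stellate cell markers were higher in liver for 13 of 17 genes (median 3.82), such as Lrat, which stores vitamin A as esters, at 7.22, and Reln at 5.26. Bmp10, a growth factor that acts on endothelium, had 0 counts in WAT and was at least 869-fold higher in liver. Kupffer cell markers, those of the resident macrophage of liver, were higher in liver for 10 of 15 genes (7 with scaling by total counts, against 5 in WAT), and Clec4f had 43.5 to 163 CPM in liver and at most 0.469 in WAT.

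Most macrophage genes were higher in fat. Of 20 pan-macrophage genes, 16 were higher in WAT and 2 in liver (median -1.96), and of 16 genes of lipid-associated macrophages, 11 and 3 (median -3.01). The summed level of the second list went the other way, at 24546 to 32602 CPM in liver and 12057 to 15740 in WAT, and Apoe, one of the list's 3 genes on the liver side and a product of hepatocytes, holds 23301 to 31326 of the liver values. Trem2, a lipid-sensing receptor, had 1.27 to 122 CPM in WAT and 0.432 to 2.6 in liver, and Gpnmb, a glycoprotein of lipid-laden macrophages, had 4.55 to 1090 and at most 0.74. Male WAT held the upper part of both ranges, as described next. T and NK cell markers were low in both organs, with summed levels of 36.1 to 102 CPM in WAT and 5.76 to 32.1 in liver, and 9 of 20 genes were higher in WAT while 11 did not pass. With scaling by total counts 19 of the 20 were higher in WAT.

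**Figure D4:**
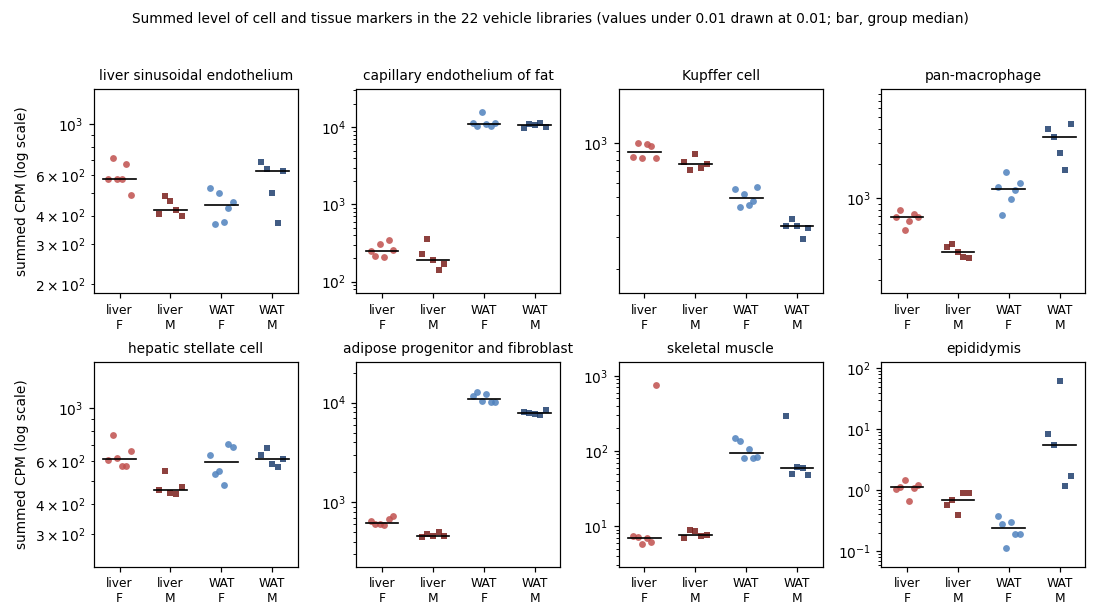
Summed CPM of marker lists (log axis) in each of the 22 libraries, by organ and sex, with bars at the group medians. Sums for capillary endothelium of fat and for progenitors do not overlap between organs, sinusoidal and stellate sums do, and pan-macrophage sums run from 306 CPM in male liver to 4417 in male WAT. The capillary sum was 9682 to 15773 CPM in WAT, where Fabp4, a gene of adipocytes too, alone had 5353 to 10349. The part of adipocyte RNA in the capillary sum was not tested.

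The organ difference itself depended on sex for 5693 genes (31.6%) by edgeR's test of the organ by sex term. In 2409 (13.4%) the male difference lay further toward liver and in 3284 (18.2%) further toward WAT. Arsa, the lysosomal arylsulfatase A, had the smallest p: male liver had 146 to 185 CPM and female liver 21 to 29.1, while WAT had 41.9 to 54.2 in both sexes together. Arsa was thus higher in WAT in females (-1.01) and higher in liver in males (1.81), a change of 2.83 (SE 0.114, adjusted p = 5.16e-13). The glutathione transferase Gstp1 (2.71), the exporter Abcg2 (1.9) and Ttc39c (2.13) followed with male liver above female liver. In C6, a late complement component, both organs took part: female liver had 15.2 to 24.3 CPM, male liver 143 to 228, female WAT 67.5 to 115 and male WAT 24.8 to 54.6, a change of 4.69 (SE 0.27). The change for Nrn1, a neuronal surface protein, came from fat, where females had 8.94 to 18.2 CPM and males 0.0852 to 0.49 (5.17). Zfp979 (4.68) and the droplet hydrolase Ldah (1.31) completed the 8 with the smallest p in this direction.

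Toward WAT in males, the 8 with the smallest p were Fut8 (-1.62), Arhgdia (-1.13), Plce1 (-1.77), Evc2 (-1.68), Stambpl1 (-3.5), Itga6 (-1.79), Ccdc88a (-2.0) and Pak1 (-3.3). Fut8, which adds core fucose to glycans, had 3.42 to 4.75 CPM in male liver and 9.62 to 12.4 in female liver, with WAT of both sexes at 20.5 to 27.3. Pak1, a kinase of the cytoskeleton, had 8.14 to 15.8 CPM in male WAT against 1.91 to 4.47 in female WAT. The urinary protein gene Mup20, known as a male pheromone carrier, had 1614 to 2882 CPM in male liver and 13 to 22.4 in female liver, with the caution on Mup copies given above. Its change of 4.39 fell to 2.2 without WAT of female 12 (adjusted p = 0.544).

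Macrophage genes moved toward fat in males. All 20 pan-macrophage genes and 13 of 16 lipid-associated macrophage genes passed in that direction, with median differences of -0.74 in females and -3.48 in males for the first list and -1.82 and -4.87 for the second. Adgre1, the F4/80 antigen, had 22.4 to 66.5 CPM in female WAT and 68.6 to 206 in male WAT, and in liver it had 14.1 to 30.1 in females and 4.55 to 11.5 in males. The sexes did not overlap in either organ: males were higher in WAT and lower in liver. Cd68 (-3.51), Lyz2 (-2.51), the integrin Itgax (-4.97), Trem2 (-4.79) and Gpnmb (-5.02) shifted the same way. Without liver of female 12 and WAT of males 3 and 9, the libraries high in muscle or epididymis markers, all 20 pan-macrophage genes still passed, while Gpnmb missed the threshold (-4.88, adjusted p = 0.0617). Pan-macrophage sums were 538 to 801 CPM in female liver, 306 to 408 in male liver, 720 to 1696 in female WAT and 1760 to 4417 in male WAT. T and NK cell genes passed toward WAT in males for 16 of 20. Summed markers of other cells also separated the sexes. White adipocyte markers summed to 25479 to 37389 CPM in male WAT and 43872 to 56856 in female WAT. Adipose progenitor markers summed to 7575 to 8412 CPM in male WAT and 10130 to 12604 in female WAT. Car3, with a mean of 13810 CPM over all WAT, weighs most in the adipocyte sum. Single genes went both ways in the organ by sex test. Of 20 white adipocyte genes, 9 passed toward liver in males and 6 toward WAT, and of 22 progenitor genes 2 and 7. In liver, pan-endothelial markers summed to 439 to 509 CPM in males and 573 to 693 in females. The part of these other cells in the shift of macrophage genes was not tested.

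Mitochondrial genes moved toward liver in males. Of the nuclear respiratory chain subunits, 41 of 42 passed in that direction, with median differences of 0.59 in females and 1.2 in males, and so did 21 of 31 fatty acid oxidation genes, 18 of 21 genes of branched-chain amino acid catabolism and 17 of 20 of the tricarboxylic acid cycle. Acadm, which oxidizes medium-chain fatty acids, had 443 to 558 CPM in female liver, 553 to 644 in male liver, 328 to 405 in female WAT and 273 to 296 in male WAT (change 0.52, SE 0.101). Summed levels of nuclear respiratory chain subunits were 3927 to 4420 CPM in male WAT and 4711 to 6792 in female WAT, and the female libraries 3 and 7 were the highest, at 6792 and 6251. Male liver had 8877 to 9782 CPM and female liver 7669 to 9195. The lower sums of male WAT went with the lower white adipocyte and higher pan-macrophage sums given above, whose part in them was not tested. Without those 2 WAT libraries 37 of the 42 still passed, and the change in Bckdha, a subunit of the branched-chain ketoacid dehydrogenase, in the full set was 0.95 (adjusted p = 0.000282).

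Lipid synthesis moved in the same direction for 17 of 32 genes, and for 11 of 32 without WAT of females 3 and 7. The sum over fatty acid and triglyceride synthesis was 63911 and 49051 CPM in those libraries and 31574 to 39944 in the 4 other female WAT libraries, while liver had 9886 to 19103 in females and 22845 to 48242 in males. Scd1 had 1358 to 6803 CPM in female liver and 10112 to 31962 in male liver, without overlap, and its organ difference was -3.07 in females and -0.6 in males. Fasn changed by 1.54 (adjusted p = 0.0337), which became 0.7 without the same WAT libraries (adjusted p = 0.168). Pparg differed by -3.41 in females and -2.65 in males. Collagens and matrix proteins passed toward WAT in males for 12 of 33, for 18 without liver of male 4, and for 7 without liver of female 12, the library with 753 CPM of skeletal muscle markers. The part of these 3 libraries in the sex difference, beyond the counts without them, was not tested.

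**Figure D5:**
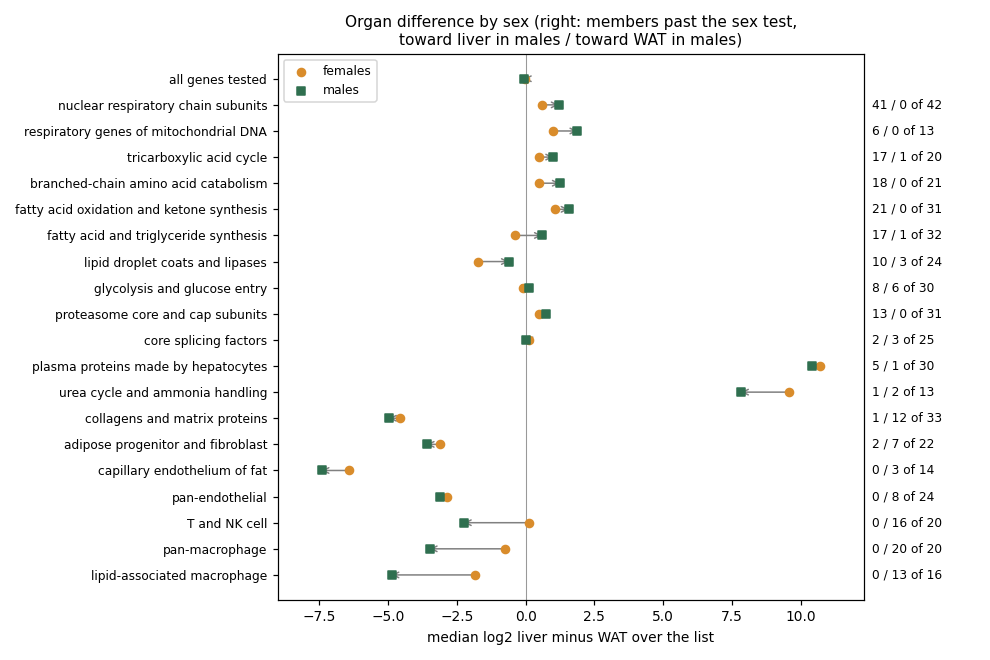
Median organ difference (log2 liver over WAT, x axis) over each list in females (circles) and males (squares), joined by arrows; the counts at the right are members past the organ by sex test toward liver and toward WAT in males. The pan-macrophage median lies at -0.74 in females and -3.48 in males, and the respiratory chain median at 0.59 and 1.2.

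The depot of the fat bears on any sex difference in WAT. Of 10 subcutaneous depot genes tested, all 10 were higher in WAT than in liver, and of 11 visceral ones, 8 were. Hoxc8 overlapped between the sexes, with 49.4 to 74.3 CPM in female WAT and 47 to 86.8 in male WAT. Hoxc10 did not: female WAT had 13.2 to 21.1 CPM and male WAT 0.15 to 1.7, and for Hoxc9 the ranges were 8.75 to 12.1 and 2.78 to 5.6. Among visceral genes, Wt1, a factor of mesothelium and visceral progenitors, had 7.25 to 22.1 CPM in female WAT and 5.14 to 9.14 in male WAT, and Upk3b, a mesothelial protein, 23.7 to 134 and 11.9 to 32.9. Epididymis markers summed to 1.19 to 62.7 CPM in male WAT and to at most 0.375 in female WAT. Since the labels name no depot, sex and depot cannot be told apart here.

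Traces of each organ's RNA were found in the other. Of the 20 hepatocyte markers, 18 stood in WAT at 0.02% to 0.12% of their liver mean, and Cyp2e1 at 6.79%. By library, Alb in WAT was 161 CPM in female 2, 34.5 in female 3, 20.1 in female 6, 27.5 in female 7, 102 in female 10 and 60.7 in female 12. In males it was 3.46 in male 3, 3.08 in male 4, 28.7 in male 9, 98.7 in male 10 and 73.2 in male 12. High and low values of Alb occurred in both sexes. The sum of the 20 hepatocyte markers, in which Cyp2e1 weighs most, did separate them. It was 737 to 1963 CPM in female WAT and 179 to 531 in male WAT. In the other direction Adipoq reached 2.45 CPM in liver of female 10 and 2.26 in liver of female 12. Whether these reads were made in the organ or carried into the library was not tested, and a fold change of a hepatocyte gene depends on them.

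The organ difference was set against that of PTP-r mice in a fit of all 46 libraries and 19135 genes. The term passed for 960 genes (5.02%): in 483 (2.52%) the difference lay further toward liver with PTP-r and in 477 (2.49%) further toward WAT. Macrophage and matrix genes were among the first, with 9 of 16 lipid-associated macrophage genes, 5 of 20 pan-macrophage genes and 6 of 33 collagens and matrix proteins, against 0 in the other direction in each list. Gpnmb moved by 4.32 (adjusted p = 0.00268) and Lyz2, lysozyme, by 1.13 (adjusted p = 0.0146). Sparc moved by 0.87 (adjusted p = 0.000501), Lpl by 1.1 (adjusted p = 0.00285) and Hp by 1.1 (adjusted p = 0.00224). Respiratory chain, tricarboxylic acid cycle and pan-endothelial genes moved the other way, for 8 of 42, 6 of 20 and 6 of 24, with 0 toward liver in each. The counts of respiratory chain and pan-macrophage genes rested on single libraries: the first ran from 3 without liver of male 10 to 22 without WAT of female 3, and the second from 2 without liver of male 10 to 9 without WAT of male 10. Leaving out 1 library gave 7 to 9 lipid-associated macrophage genes, 4 to 7 matrix genes and 6 to 7 pan-endothelial genes. The vehicle libraries enter both this term and the organ difference itself, so the directions in both are not independent.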

How the data were processed

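PolyA RNA of liver and WAT was measured in 46 libraries, of which the 22 vehicle libraries were compared and the 24 PTP-r libraries entered 1 test. Each library has its own deposited file, which holds whole counts of reads for every gene. The submitters' processing notes name the aligner STAR 2.4.0i, the counter HTSeq and the build mm10. Which annotation release, library kit and strand protocol they used is not stated. Column 4 of the deposited counts was used, since it held 96.2% to 96.5% of both stranded columns, and the totals that name no gene (21.0% to 27.4% of a liver and 18.4% to 28.7% of a WAT library) stayed out. Of 55487 identifiers, 55227 matched GENCODE M21, whose exon lengths gave CPM per kb. Over 50 pairs of replicates the chi-square per degree of freedom was 13.2 to 104, so none was a repeat deposit.

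Genes passing edgeR's expression filter (minimum count 10, total 15) were fitted in R 4.3.3 by edgeR 4.0.16, with 2-sided quasi-likelihood F tests, scaling by trimmed means of M values and sex as covariate, for organ, for a fold change of 2 (glmTreat), for organ by sex and, over 46 libraries, for organ by treatment. Benjamini-Hochberg adjusted p-values under 0.05 passed. On simulated data with true folds of 1.5, 2 and 4, the organ test recovered 73.1%, 85.1% and 97% of 200 changed genes by size class, and the organ by sex test 37.3%, 64.2% and 89.4%; 5.03% and 3.79% of calls were false. These rates are for 200 changed genes among 18032 in each test, while 85.2% of genes passed the organ test in the libraries. Whether they hold with that many differences between organs, where the scaling moves the calls, was not tested. Fold changes of genes at 0 in an organ are given as bounds at 3 counts over its 11 libraries.

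Members of the comparison, gene lists and tests were chosen with earlier results of these data known. Named were list members with the highest level or a direction against their list, the 12 genes per direction with the highest mean CPM in the higher organ past the 2-fold test with a log2 difference of at least 2, and the 8 genes per direction with the smallest p of the sex term. Genes named beside these were chosen after their values were seen, and some genes that these rules select are not reported here. Alternatives were other scalings (DESeq2 1.42.0 size factors, upper quartile, total counts), DESeq2, voom of limma 3.58.1, other filters, unstranded counts, other folds, each sex alone, the title number as a block, a 100-base promoter window and leaving out each library.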

Additional observations from a re-analysis of the deposited data

Results flagged for a closer look

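Single libraries lay far from the others of their organ and sex in 18 of 229 groups examined (7.86%), by the ratio of the gap to the nearest library over the group's range; chance flags about 1 in 20 groups. In marker sums, liver of female 12 had 753 CPM of skeletal muscle markers (nearest 7.33) and WAT of male 3 had 296 (nearest 61.7). WAT of male 9 had 62.7 CPM of epididymis markers (nearest 8.32), and WAT of male 10 had 85.3 of mammary epithelium markers (nearest 34.1). WAT of female 12 had 1811 CPM of erythroid markers (nearest 706). WAT of female 10 had 2729 CPM of smooth muscle and pericyte markers (nearest 1811) and 9.9 of ovary and oviduct markers (nearest 6.49). WAT of female 6 had 15773 CPM of markers of capillary endothelium of fat (nearest 11502). Its pan-endothelial sum was 2321 CPM, within the female WAT range of 2102 to 2429, while its Fabp4 was 10349 CPM (nearest 7067). WAT of female 3 was the lowest in T and NK cell markers, at 36.1 CPM (nearest 52.4). Smaller gaps were those of exocrine pancreas markers in WAT of male 4, at 48 CPM (nearest 44.7), and of stellate cell markers in liver of male 4, at 548 CPM (nearest 470).

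Among genes, liver of male 9 was low in Trf, at 16890 CPM (nearest 18132), and liver of male 12 low in Apoa1, at 7134 CPM (nearest 8923), and high in Arsa, at 185 CPM (nearest 152). Liver of male 4 was high in Col4a1, at 54.7 CPM (nearest 33.2). WAT of male 4 was high in Cd36, at 3840 CPM (nearest 3488), and in C6, at 54.6 CPM (nearest 33.1), and WAT of female 6 was high in Fabp4, at 10349 CPM (nearest 7067).

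The organ difference differed between the sexes, by edgeR's test of the organ by sex term, for all 28 genes that the report names for this term. These 28 were picked by the smallest p or with their values known, so that all passed follows from the choice. Over all genes tested, 5693 (31.6%) passed. Other named genes were not counted here. As log2 of male minus female organ difference, the values toward liver in males were 5.17 for Nrn1, 4.69 for C6, 4.68 for Zfp979, 4.39 for Mup20, 2.83 for Arsa, 2.71 for Gstp1, 2.48 for Scd1 and 2.13 for Ttc39c. They were 1.90 for Abcg2, 1.54 for Fasn, 1.31 for Ldah, 0.95 for Bckdha, 0.77 for Pparg and 0.52 for Acadm. Toward WAT in males, Gpnmb changed by -5.02, Itgax by -4.97, Trem2 by -4.79, Cd68 by -3.51, Stambpl1 by -3.50, Pak1 by -3.30 and Adgre1 by -3.23. Smaller values were -2.51 for Lyz2, -2.0 for Ccdc88a, -1.79 for Itga6, -1.77 for Plce1, -1.68 for Evc2, -1.62 for Fut8 and -1.13 for Arhgdia.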

How the results depend on the processing

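Total counts as the only scaling moved the median of all genes by -0.88 and gave 3484 genes higher in liver and 12854 in WAT, with 2035 and 7724 past the 2-fold test. A fold of 4 in that test left 5052 genes, 1879 and 3173 by direction. The PTP-r term gave 541 genes with no filter, 630 without liver of female 12 and WAT of males 3 and 9, and 1595 without WAT of females 3 and 7; both sets of libraries were chosen after seeing the data. The cause was not tested. Every other setting among the 39 kept the counts of all terms within 1.5 times. Leaving out 1 library gave 15249 to 15524 genes for organ (7418 to 7533 in liver, 7826 to 8006 in WAT), 8236 to 8418 past 2-fold (3292 to 3387 and 4928 to 5067), 5059 to 5824 for organ by sex and 656 to 1278 for PTP-r.

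With the title number as a replicate block, the counts were 15152, 8254, 5067 and 832. Liver and WAT libraries of 1 number correlated in their deviations from group means by -0.04 to 0.176, and 4 of 11 were highest with their own number, so the numbers were not used as pairs; whether they mark the same mouse is not settled by this.

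Of 125 genes named, 109 kept direction and call in every setting, and DESeq2 gave no adjusted p for 6. With total counts, Acadm (-0.12), Cebpa (-0.56), Hp (-0.05), Phb (-0.57), Plce1 (-0.83) and Plin2 (-0.51) turned toward WAT. Each sex alone turned Acaca (0.6), Acsl1 (0.41), C6 (2.33), Ldah (0.61) and Plce1 (-0.96) in males, and Arsa (-1.02) and Pak1 (0.36) in females. Acaca turned to 0.33 without WAT of females 3 and 7. These 12 turned in some setting, and 4 others changed call alone: Ghr as given above, Pck1 with total counts (0.38), and Scd1 (-0.63) and Zfp979 (-0.38) in males alone. Of the 28 sex differences, which were picked with their values known, 25 passed in all settings, the others being Fasn, Gpnmb and Mup20. Depth limits genes near 0: the liver levels of Lep and the WAT levels of Gc rest on few reads.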

Other observations

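Genes of thermogenic fat differed in both directions. Ucp1, which uncouples respiration in brown fat, was not tested and reached at most 0.225 CPM in WAT. Of 15 thermogenic adipocyte genes tested, 9 were higher in WAT, 5 in liver and 1 did not pass (median -1.51). Kcnk3, a potassium channel, had a median of 55.1 CPM in WAT and 0.787 in liver, and Prdm16, a determinant of brown fat, 8.9 and 0.602. Cox8b and Dio2, the deiodinase that makes active thyroid hormone, had medians of 3.97 and 1.02 CPM in WAT. The liver side held Ppargc1a, a coactivator of mitochondrial genes, at 3.33, Gk, the glycerol kinase, at 4.07, and Slc27a2, a fatty acid carrier of hepatocytes, at 10.75. Among ammonia genes, which were all higher in liver, Glul, the glutamine synthetase, had the narrowest gap, at 1.13.

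Genes encoded by mitochondrial DNA were higher in liver for 13 of 13 (median 1.38). mt-Co1 had 22630 to 31465 CPM in liver and 7712 to 17511 in WAT, and mt-Nd1 6753 to 10174 and 2648 to 4736. Several mitochondrial genes have near-identical copies in the nuclear genome, so their levels are uncertain.

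B and plasma cell markers summed to 418 to 1005 CPM in WAT and 20.8 to 299 in liver, with female liver at 33.8 to 299 and male liver at 20.8 to 31.3. Of 14 genes of this list tested, 7 were higher in WAT, 1 in liver and 6 did not pass (median -0.82). The 2-fold test was passed by 2 toward WAT. With scaling by total counts 13 were higher in WAT. Lymphatic endothelium markers summed to 235 to 414 CPM in liver and 53.3 to 97.1 in WAT. Gene by gene, 3 of the 6 tested were higher in liver and 3 in WAT (median -0.8). The liver's sinusoidal endothelium shares genes with lymphatic endothelium. The highest difference in the lymphatic list was 8.17, and that in the sinusoidal list was 7.62. Which cells the liver sum came from was not tested. Nerve and Schwann cell markers summed to 178 to 255 CPM in WAT and 24.7 to 39.3 in liver.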
